A study of Mus musculus with 6 samples.

Results

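The genes described here encode proteins of the nuclear pore complex and of the transport machinery that passes through it. They were chosen by name, as 34 gene symbols (28 nucleoporins and pore-associated proteins, and 6 transport receptors or Ran cycle proteins), and every probe set annotated to one of these symbols alone was taken. The choice was made with earlier results of these data known. Of the 34 genes, 32 were measured, by 91 probe sets (a probe set is a group of short array probes read as a single value), and Nup35 and Tpr had no probe set listed to them alone and were not analysed here. All 32 were among the 9641 genes tested on the arrays. The study compared mock-transduced 32D cells, labelled with the retroviral vector MSCVpuro, with 32D cells transduced with Nup98::Nsd1, in 3 samples each. This fusion of acute myeloid leukaemia joins part of the nucleoporin Nup98 to the histone methyltransferase Nsd1. 32D cells need interleukin-3 to grow and, per the labels, came from the bone marrow of a C3H/HeJ mouse infected with Friend leukemia virus, so both groups share that origin. The labels do not say whether the transduced cells were a pool or a single clone, nor how old the animal was.

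The nuclear pore complex is a ring-shaped channel through the nuclear envelope, built from many copies of each nucleoporin. Y complexes and the inner ring form its scaffold, a membrane ring anchors it, and nucleoporins rich in phenylalanine-glycine repeats fill the channel. Importins and exportins carry cargo through it, and they bind or release the cargo according to whether the GTPase Ran holds GTP or GDP. Nup98 is one of the repeat nucleoporins, binds Rae1 and Xpo1, and is a recurrent fusion partner in myeloid leukaemia.

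Each sample was read on 1 Affymetrix GeneChip mouse array, and the values are MAS5 signals on a linear scale. The share of Present calls (signal above background by MAS5) was 45.1% to 45.9% in mock and 47.6% to 48.2% in Nup98::Nsd1 samples. The ratio of 3′ to 5′ signal, which reflects RNA and labelling quality, was 1.1484 to 1.2021 for Actb on mock arrays and 1.4514 to 1.5002 on Nup98::Nsd1 arrays, and that of Gapdh was 0.742 to 0.771 and 0.799 to 0.843. The part of this difference in the results was not tested. Of 9 myeloid progenitor markers, 7 were Present on all 6 arrays and Kit on none, and their summed signal was 57097 to 60740 in mock and 31769 to 32551 in Nup98::Nsd1 cells. The markers did not move together: Mpo, Elane, Prtn3 and Ms4a3 were lower on all Nup98::Nsd1 arrays (Mpo 18198 to 19864 against 5160 to 5224), while Ctsg, Spi1 and Cebpa were higher (Cebpa 582 to 657 against 1068 to 1214) and Csf2rb and Kit overlapped. Of 10 measured markers of T, B, fibroblast, endothelial and epithelial cells, 1 (Pecam1) was Present on all 6 arrays and 6 had no probe set Present on any array. The summed signal of the 10 was 3088 to 3382 in mock and 2261 to 2428 in Nup98::Nsd1 cells. Most of this sum was Pecam1, at 2689 to 3059 in mock and 1883 to 2107 in Nup98::Nsd1 cells. Of the others, Cd79a was higher without a Present call, and the rest overlapped between groups. The part of these shifts in the results was also not tested. Precision is limited by the small number of arrays. Nothing in the labels states that samples were separate cultures, so the p-values rest on the spread among these samples alone, and that spread may be technical.

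Most of the pore and transport genes gave a lower signal in Nup98::Nsd1 cells. At the brightest tested probe set of each gene, 25 of 32 were lower (78.1%), 3 were higher and 4 did not pass the threshold, an adjusted p under 0.05 by limma. Among all 9641 genes tested, 29.5% were called lower and 42.9% higher. The median log2 fold change (Nup98::Nsd1 minus mock) was -0.32 over the 32 genes and 0.12 over all genes tested. The falls were moderate: 11 of the 32 were lower by at least 1.5-fold, against 10.1% of all genes, and 1, Sec13, by at least 2-fold, against 2.6% of all genes. The 3 higher genes were Nup98, Nup62 and Nup160, and the 4 that did not pass were Nup188, Nup210, Nup214 and Rae1. In 26 of the 32 the Nup98::Nsd1 arrays all lay below the mock arrays, while 30.5% of all genes tested were separated in that direction. In bulk samples of this kind, fewer cells of a type and less RNA per cell cannot be told apart.

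**Figure D1:**
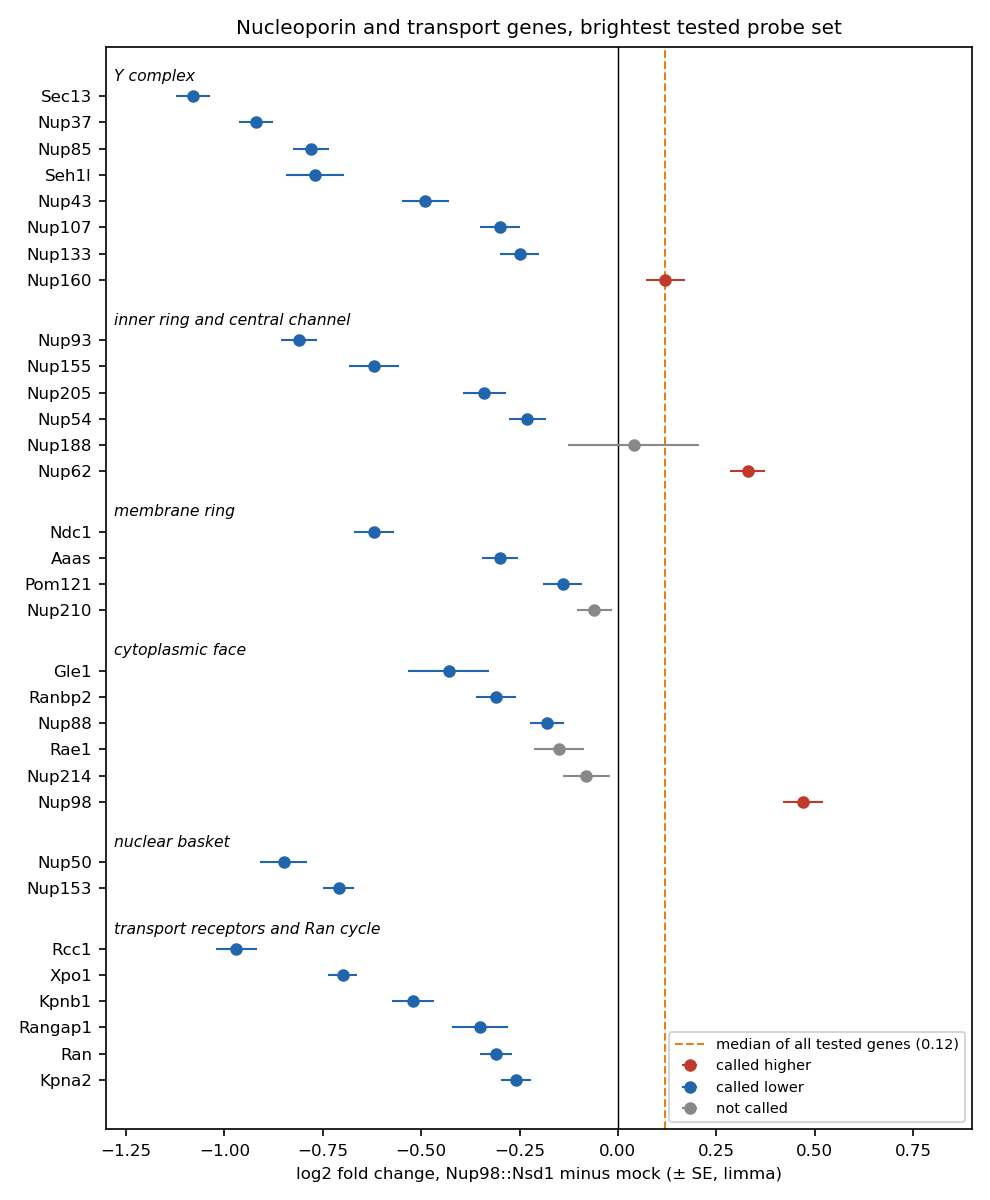
The log2 fold change (Nup98::Nsd1 minus mock, x axis) of the 32 genes is plotted with its SE, by role in the pore (y axis), in red where called higher, blue where called lower and grey where not called, with the median of all tested genes, 0.12, as a dashed line. The 25 blue points lie left of 0, from Sec13 at -1.08 to Pom121 at -0.14, and Nup98, Nup62 and Nup160 lie right of it on the deposited scaling (Nup160 changes sign under 3 other scalings and Nup62 under 1).

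These genes were also brighter than most, and bright genes were called lower more often. All 32 were Present on all 6 arrays. Of the 29 whose mean signal on the log2 scale was at least 10, 23 were lower and 3 higher, against 43.3% and 37.5% of the 4403 genes of that brightness. Over single probe sets, 52 of the 77 tested were lower, 10 higher and 15 not called, against 27.6% lower and 42.3% higher among all 20494. Of 68 probe sets with a mean log2 signal of at least 8, 51 were lower and 8 higher, against 35.7% and 40.1% of all probe sets of that brightness. Of the 9 dimmer ones, 1 was lower, 2 were higher and 6 were not called, against 9.06% lower and 47.4% higher among all dim probe sets.

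**Figure D2:**
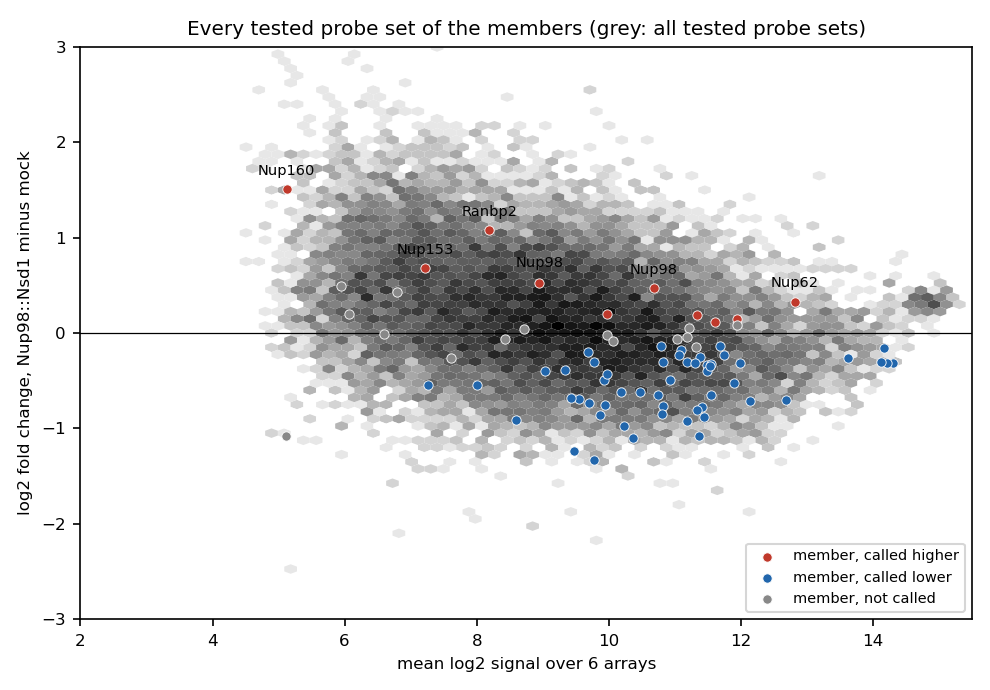
Each of the 77 tested probe sets of these genes is plotted by its mean log2 signal over 6 arrays (x axis) and its log2 fold change (y axis), over a grey density of all 20494 tested probe sets. The 52 blue points (called lower) lie mostly at high signal, and the 10 red points (called higher on the deposited scaling) include probe sets of Nup160, Ranbp2 and Nup153, which are named on the plot.

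Nup98, the gene whose product is part of the fusion, had the largest rise of the 32 at the brightest probe set of each gene. With all tested probe sets of a gene averaged, Nup98 rose by 0.49 and Nup160 by 0.82, through a dim probe set that was Absent on the mock arrays. The brighter Nup98 probe set read 1405, 1388 and 1376 on the mock arrays and 1839, 1993 and 1946 on the Nup98::Nsd1 arrays. The groups did not overlap, and every Nup98::Nsd1 array was above every mock array. The mean rose from 1389.9 ± 14.6 to 1926 ± 78.8 (SD, n = 3 each), 1.39-fold (log2 0.47, SE 0.0503, limma adjusted p = 6.19e-06). An exact two-sided permutation test over the 20 assignments of arrays to groups gave p = 0.1, the smallest it can give with 3 against 3. The second probe set read 397, 360 and 497 in mock and 592, 613 and 572 in Nup98::Nsd1 cells, again without overlap (log2 0.52, SE 0.112, adjusted p = 0.0015). The sources used here do not say which part of the transcript each probe set reads, so the native transcript and the fusion transcript cannot be told apart and these values do not check the labels.

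Nup98 was also compared with the other 31 genes on the same array, a measure that a single scaling factor per array cannot move. Set to 0 at the mock mean, the log2 signal of Nup98 minus the median of the other genes was 0.02, -0.02 and -0.00 on the mock arrays. It was 0.86, 1.01 and 0.96 on the Nup98::Nsd1 arrays, a difference of 0.94. On the deposited scaling, about equal parts of it came from Nup98 itself and from the median of the others. The log2 signal of Nup98 was 10.46, 10.44 and 10.43 in mock and 10.84, 10.96 and 10.93 in Nup98::Nsd1 cells. The median of the others was 11.48, 11.50 and 11.47 against 11.03, 11.00 and 11.01. This split depends on the scaling: Nup98 rose by 0.47 as deposited, 0.27 with centring on the 75th percentile and 0.10 with the hybridization controls. The difference of 0.94 ranged from 0.91 to 0.98 when each array was left out in turn. Over all the alternatives in which it was computed, it ranged from 0.88 to 0.98. Computed the same way for each gene against the median of these genes, the differences ran from -0.62 for Sec13 to 0.59 for Nup160, 0.80 for Nup62 and 0.94 for Nup98.

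**Figure D3:**
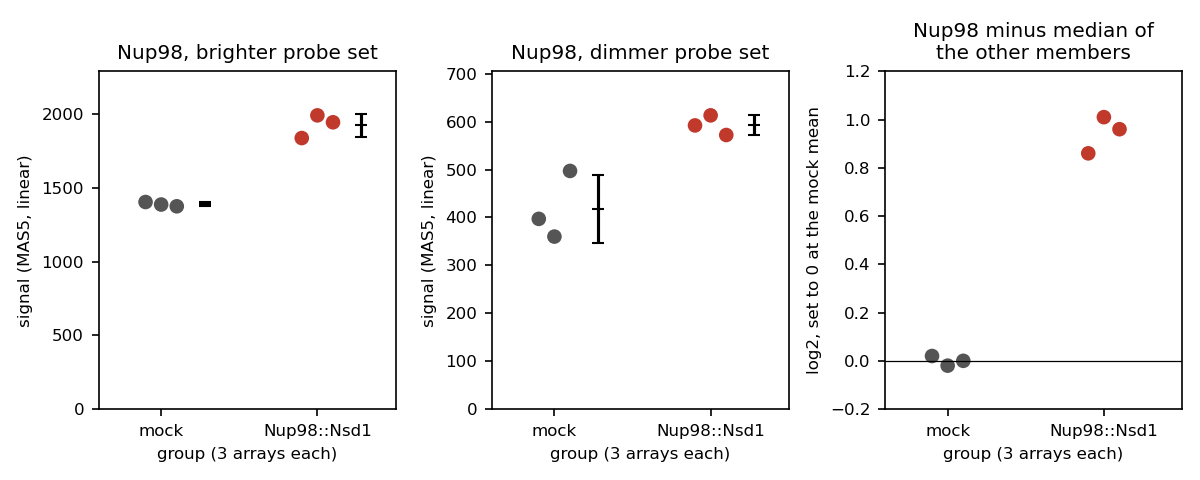
The 3 panels show, for 3 mock and 3 Nup98::Nsd1 arrays (x axis), the signal of the brighter and of the dimmer Nup98 probe set, with bars for mean ± SD, and the log2 signal of Nup98 minus the median of the other genes, set to 0 at the mock mean. All 3 Nup98::Nsd1 arrays lie above all 3 mock arrays in each panel, at 0.86 to 1.01 in the last.

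The promoters of 6 of these genes are printed to show what sequence lies before the starts of the higher and of the lower genes. They are Nup98 and Nup62, which were higher, Sec13 and Nup37, the lowest of the Y complex, and the transport receptors Kpnb1 and Xpo1. Each is the 250 bases before the most upstream RefSeq start, from RefSeq on build GRCm38.p6, which is sequence of another mouse strain than the C3H/HeJ cells. The windows, 5′ to 3′ on the gene's strand, are chr7:102210167-102210416 (minus) for Nup98, chr7:44815838-44816087 (plus) for Nup62, chr6:113740682-113740931 (minus) for Sec13, chr10:88146742-88146991 (plus) for Nup37, chr11:97187893-97188142 (minus) for Kpnb1 and chr11:23255791-23256040 (plus) for Xpo1. Capitals mark matches, on either strand, to the motifs given after the sequences.
Nup98: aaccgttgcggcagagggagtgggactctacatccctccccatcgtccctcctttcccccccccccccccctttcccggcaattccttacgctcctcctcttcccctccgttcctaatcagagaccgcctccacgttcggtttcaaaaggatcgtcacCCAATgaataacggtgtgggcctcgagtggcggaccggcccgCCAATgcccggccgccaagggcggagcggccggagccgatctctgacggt
Nup62: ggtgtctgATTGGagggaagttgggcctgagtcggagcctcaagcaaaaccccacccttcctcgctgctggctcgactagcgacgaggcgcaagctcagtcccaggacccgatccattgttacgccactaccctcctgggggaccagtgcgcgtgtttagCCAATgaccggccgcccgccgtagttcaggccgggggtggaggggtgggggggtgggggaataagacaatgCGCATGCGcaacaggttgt
Sec13: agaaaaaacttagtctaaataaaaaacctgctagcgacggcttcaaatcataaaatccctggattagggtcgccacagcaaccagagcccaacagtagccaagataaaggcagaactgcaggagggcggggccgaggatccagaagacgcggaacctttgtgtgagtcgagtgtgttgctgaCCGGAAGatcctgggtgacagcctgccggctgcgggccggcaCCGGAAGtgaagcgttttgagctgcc
Nup37: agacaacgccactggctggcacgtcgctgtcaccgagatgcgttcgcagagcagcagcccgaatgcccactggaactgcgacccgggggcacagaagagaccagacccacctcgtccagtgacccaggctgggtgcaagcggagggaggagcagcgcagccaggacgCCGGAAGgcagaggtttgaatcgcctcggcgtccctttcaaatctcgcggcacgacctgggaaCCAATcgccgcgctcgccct
Kpnb1: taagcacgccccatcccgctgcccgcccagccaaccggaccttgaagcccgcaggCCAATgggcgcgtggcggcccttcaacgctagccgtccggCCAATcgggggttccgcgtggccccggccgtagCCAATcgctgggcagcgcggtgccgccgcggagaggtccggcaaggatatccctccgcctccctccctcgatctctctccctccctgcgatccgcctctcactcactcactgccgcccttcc
Xpo1: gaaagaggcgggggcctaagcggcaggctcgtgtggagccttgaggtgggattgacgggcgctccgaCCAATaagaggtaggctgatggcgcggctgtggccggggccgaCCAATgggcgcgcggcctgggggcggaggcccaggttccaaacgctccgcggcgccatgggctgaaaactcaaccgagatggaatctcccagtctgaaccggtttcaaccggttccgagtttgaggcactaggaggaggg

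The motifs searched, on both strands, were the CCAAT box (CCAAT), an ETS site (CCGGAAG), an E-box (CACGTG), an NRF1 site (CGCATGCG) and an E2F site (TTCCCGCC). Of the 34 genes, 30 had an entry in the RefSeq promoter table; Nup35, Nup43, Nup85 and Seh1l had none. The CCAAT box was in 12 of the 30 windows (40.0%), against 34.5% of all 27025 windows in the table and 37.0% of the 7935 windows of genes tested on the arrays. The ETS site was in 6 (20%), against 7.07% of all and 15.9% of tested genes, and the E-box in 5 (16.7%), against 6.04% and 8.81%. The NRF1 site was in 4 (13.3%; Nup62, Nup107, Nup50 and Ran), against 1.58% of all and 3.6% of tested genes, and the E2F site in 1, Nup210, against 1.91% and 3.89%. Both the higher gene Nup98 and the lower genes Kpnb1 and Xpo1 held only CCAAT boxes, with 2, 3 and 2 matches. Sec13 held 2 ETS sites and no CCAAT box. A match describes the letters in the window and is not a binding site or a cause, and a window with no match says only that these letters are not in it.

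The Y complex, the outer scaffold of the pore, included Sec13, the gene with the largest fall of the 32. All 8 of its genes were tested. Of these, 7 were lower and Nup160 was higher, with a median log2 fold change of -0.63. Over all genes tested, 29.5% were lower and 42.9% higher, shares that also stand beside the roles below. Sec13, which also builds the coat of transport vesicles at the endoplasmic reticulum, read 3842, 3818 and 3840 in mock and 1766, 1837 and 1824 in Nup98::Nsd1 cells. Its mean fell from 3833.3 ± 13.4 to 1809.2 ± 37.8, 2.12-fold (log2 -1.08, SE 0.042, adjusted p = 1.86e-09). Nup37, a beta-propeller protein of the complex, read 3202, 3208 and 3235 in mock and 1715, 1653 and 1716 in Nup98::Nsd1 cells, 1.9-fold lower (log2 -0.92, SE 0.0431, adjusted p = 7.4e-09). Nup85, in the short arm of the Y, read 3521, 3597 and 3558 in mock and 2091, 1996 and 2145 in Nup98::Nsd1 cells, 1.71-fold lower (log2 -0.78, SE 0.0446, adjusted p = 3.58e-08). In none of these genes did the groups overlap, and the gap between groups was far wider than the spread within either.

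The partner of Nup85 in the short arm, Seh1l, was read by 7 tested probe sets. Of these 6 were lower, with log2 fold changes from -0.54 to -1.33, and the dimmest, at -1.08, did not pass (adjusted p = 0.0568); the brightest fell from 2362.7 ± 140 to 1388.4 ± 143 (log2 -0.77). Nup43 was lower in both of its probe sets (log2 -0.49 and -0.69). Nup107 fell from 2588.7 ± 122 to 2099 ± 83.5 (log2 -0.30, adjusted p = 0.000262). Of 4 tested Nup133 probe sets, the brightest was lower (log2 -0.25, adjusted p = 0.000733), another fell by 0.73 on the log2 scale, and those at 0.05 and 0.49 did not pass (adjusted p = 0.338 and 0.16).

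Nup160, also in the Y complex, differed least of the genes called. It read 3135, 3026 and 2811 in mock and 3165, 3316 and 3266 in Nup98::Nsd1 cells, so the lowest Nup98::Nsd1 array was just above the highest mock array. The difference of log2 0.12 (SE 0.0496) passed narrowly (adjusted p = 0.0471). It did not pass without mock replicate 2 or 3 or without any 1 of the Nup98::Nsd1 arrays (log2 0.08 to 0.14, adjusted p = 0.0562 to 0.175), and its sign turned under 3 of the other scalings. A second, dim probe set was Absent on all mock arrays, at 7.48, 31.4 and 36.8, and Present on all Nup98::Nsd1 arrays, at 66.7, 73.5 and 41.0.

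In the inner ring and central channel, 4 of 6 tested genes were lower, 1 higher and 1 not called, with a median of -0.29. Nup93, which anchors the channel nucleoporins to the ring, read 3391, 3297 and 3567 in mock and 1932, 1976 and 1931 in Nup98::Nsd1 cells. Every Nup98::Nsd1 array was far below every mock array, and the mean fell 1.76-fold (log2 -0.81, SE 0.0459, adjusted p = 3.17e-08). Nup155, which links the inner ring to the membrane, read 1366, 1525 and 1439 against 945, 882 and 985, 1.54-fold lower without overlap (log2 -0.62, SE 0.0642, adjusted p = 4.46e-06), and its second probe set fell by 0.86 on the log2 scale. Nup205, a large scaffold protein of the ring, was lower at its brightest probe set (log2 -0.34, adjusted p = 0.000165), and its second, at -0.26, did not pass (adjusted p = 0.206). The related Nup188 read 371, 404 and 481 in mock and 326, 549 and 442 in Nup98::Nsd1 cells. These groups overlapped and the difference did not pass (log2 0.04, SE 0.167, adjusted p = 0.824); its sign turned under 4 of the other scalings.

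The channel proteins Nup54 and Nup62, which assemble into a single subcomplex, moved in opposite directions. All 4 tested Nup54 probe sets were lower, from log2 -0.23 (adjusted p = 0.000965) at the brightest to -0.91. The brightest Nup62 probe set read 6143, 6444 and 6755 in mock and 8316, 7957 and 8064 in Nup98::Nsd1 cells, without overlap. Its mean rose from 6447.6 ± 306 to 8112.3 ± 184, 1.26-fold (log2 0.33, SE 0.0444, adjusted p = 3.83e-05), and its sign turned only with scaling to the hybridization controls (log2 -0.03), of the scalings tried. That probe set and the brightest of Nup54 are of a type marked as open to cross-hybridization. Of the other 3 Nup62 probe sets tested, those at 0.15 and 0.19 were higher (adjusted p = 0.00733 and 0.00976) and that at 0.08 did not pass (adjusted p = 0.12). Those 2 calls were lost with centring on the 75th percentile (-0.05 and -0.01) and on the median (-0.02 and 0.02), and both probe sets were lower with the hybridization controls (-0.22 and -0.18, adjusted p = 0.00266 and 0.0349). Without probe sets open to cross-hybridization, the one at 0.08 stood for Nup62, which was not called (adjusted p = 0.118). The probe set at 0.15 is not of the open type either.

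In the membrane ring, 3 of 4 genes were lower and 1 was not called, with a median of -0.22. Ndc1, a transmembrane nucleoporin needed for pore assembly, read 1703, 1809 and 1766 in mock and 1163, 1133 and 1139 in Nup98::Nsd1 cells. It was 1.54-fold lower without overlap (log2 -0.62, SE 0.0505, adjusted p = 6.36e-07); a second probe set fell by 0.68 on the log2 scale, and the last, at -0.02, did not pass (adjusted p = 0.771). Aaas, the protein ALADIN that Ndc1 holds at the pore and that is mutated in triple A syndrome, read 2046, 1977 and 2014 against 1668, 1591 and 1630, 1.24-fold lower without overlap (log2 -0.30, SE 0.0467, adjusted p = 0.000116).

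The other membrane nucleoporins showed small differences. Pom121 read 3628, 3500 and 3220 in mock and 3168, 3089 and 3120 in Nup98::Nsd1 cells, a narrow separation of 1.1-fold (log2 -0.14, SE 0.0499, adjusted p = 0.0252). The call was lost without mock replicate 1 or 2 or without Nup98::Nsd1 replicate 2 or 3 (log2 -0.10 to -0.14, adjusted p = 0.0544 to 0.0952) and with quantile normalization (log2 -0.03). Nup210 did not pass on the deposited scaling (log2 -0.06, SE 0.0442, adjusted p = 0.252), though its groups did not overlap. It was called lower under 3 of the 4 other scalings: -0.25 with centring on the 75th percentile, -0.23 on the median and -0.42 with scaling to the hybridization controls (adjusted p = 0.000377, 0.000891 and 2.21e-05).

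On the cytoplasmic face, where exported RNA and proteins are released, 3 of 6 genes were lower, Nup98 was higher and 2 were not called, with a median of -0.17. With the probe sets of each gene averaged, 1 of the 6 was lower and 2 were higher. The shares over all genes given with the Y complex are for brightest probe sets and do not stand beside these averaged counts. Nup98 itself lies on both faces of the pore. Ranbp2, the filament protein that binds Ran and acts as a SUMO ligase, read 2826, 2841 and 2816 in mock and 2355, 2141 and 2365 in Nup98::Nsd1 cells at its brightest probe set, 1.24-fold lower (log2 -0.31, SE 0.0497, adjusted p = 0.000171). Another Ranbp2 probe set was lower (log2 -0.23, adjusted p = 0.00059) and 1 was higher (log2 1.08, adjusted p = 1.96e-05). With its probe sets averaged, Ranbp2 was higher (log2 0.18, adjusted p = 0.00864). Nup88, which holds Nup214 at the pore, read 2309, 2339 and 2353 against 2082, 2035 and 2045, 1.14-fold lower (log2 -0.18, SE 0.043, adjusted p = 0.00242). The groups overlapped for neither gene. Both tested probe sets of Nup214, itself a leukaemia fusion partner, overlapped between groups and did not pass (log2 -0.08 and -0.06, adjusted p = 0.258 and 0.651). This depended on the scaling: the brighter Nup214 probe set was called lower with centring on the 75th percentile (-0.27, adjusted p = 0.00165), on the median (-0.25, adjusted p = 0.00336) and with the hybridization controls (-0.44, adjusted p = 0.000127).

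Rae1, the mRNA export factor that binds Nup98 directly, read 2461, 2782 and 2839 in mock and 2369, 2326 and 2596 in Nup98::Nsd1 cells. The groups overlapped, since 1 Nup98::Nsd1 array exceeded the lowest mock array, and the difference did not pass (log2 -0.15, SE 0.0633, adjusted p = 0.0559). It passed without mock replicate 1 (log2 -0.21, adjusted p = 0.00737) or without Nup98::Nsd1 replicate 3 (log2 -0.20, adjusted p = 0.0226). It also passed with array quality weights, with the replicate block (adjusted p = 0.0259 and 0.0294), and at log2 -0.34, -0.32 and -0.51 with centring on the 75th percentile, on the median, and with scaling to the hybridization controls (adjusted p = 0.000776, 0.00143 and 2.76e-06). On the deposited scaling, Nup98 and Rae1, which pair at the pore, thus gave log2 fold changes of 0.47 and -0.15; the difference between them was not tested.

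Gle1, which activates the helicase that strips proteins from exported mRNA, gave no single direction. Its brightest probe set read 1141, 1290 and 1079 in mock and 726, 949 and 938 in Nup98::Nsd1 cells, 1.35-fold lower without overlap (log2 -0.43, SE 0.103, adjusted p = 0.00277). Another read 981, 958 and 985 against 761, 773 and 838, also lower (log2 -0.30, adjusted p = 0.00108). One more read 924, 924 and 961 against 1065, 1108 and 1057, which was higher on the deposited scaling (log2 0.20, adjusted p = 0.00744) but not called under the 4 other scalings. The fourth, at 0.43, did not pass (adjusted p = 0.0696).

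The 2 measured genes of the nuclear basket, on the inner side of the pore, were both lower by over 1.5-fold at their brightest probe sets. Nup153, a docking site for importins, read 5820, 5619 and 5867 in mock and 3458, 3517 and 3583 in Nup98::Nsd1 cells at its brightest probe set, 1.64-fold lower (log2 -0.71, SE 0.0401, adjusted p = 3.07e-08). Nup50, a mobile partner of Nup153 that helps release imported cargo, read 2274, 2558 and 2355 against 1399, 1308 and 1271, 1.81-fold lower (log2 -0.85, SE 0.0591, adjusted p = 1.64e-07). In both genes the groups were widely separated at these probe sets. The other Nup50 probe sets were also lower, at log2 -0.14 (adjusted p = 0.0231) and -0.40 (adjusted p = 0.00103). The other Nup153 probe sets went opposite ways, at log2 -0.39 (adjusted p = 0.00112) and 0.68 (adjusted p = 0.00595). With its probe sets averaged, Nup153 did not pass (log2 -0.14, adjusted p = 0.0889).

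All 6 genes of the transport receptors and the Ran cycle were lower, with a median of -0.44. Rcc1, the chromatin-bound exchange factor that loads Ran with GTP in the nucleus, read 1671, 1696 and 1653 in mock and 834, 856 and 880 in Nup98::Nsd1 cells. Its highest Nup98::Nsd1 array was far below its lowest mock array, and the mean fell 1.95-fold (log2 -0.97, SE 0.0526, adjusted p = 2.41e-08). Xpo1, the main exporter of proteins with a leucine-rich signal and a partner of Nup98 fusion proteins on chromatin, read 8428, 8300 and 8434 in mock and 5135, 5086 and 5273 in Nup98::Nsd1 cells. The mean fell from 8387.4 ± 75.7 to 5165.1 ± 97, 1.62-fold (log2 -0.70, SE 0.0375, adjusted p = 2.15e-08), and its second probe set was lower too (log2 -0.31, adjusted p = 5.67e-05).

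Kpnb1, the importin beta that carries most classical cargo, read 4702, 4699 and 4252 in mock and 3082, 3079 and 3354 in Nup98::Nsd1 cells. It was 1.43-fold lower without overlap (log2 -0.52, SE 0.0537, adjusted p = 4.5e-06), and its other 3 probe sets were lower as well, at -0.32, -0.65 and -1.24. Kpna2, an importin alpha that bridges cargo to Kpnb1, read 13609, 13449 and 14132 against 11312, 11528 and 11590, 1.2-fold lower (log2 -0.26, SE 0.0381, adjusted p = 8.38e-05). Ran itself was lower in all 5 tested probe sets, from log2 -0.16 to -0.88; 4 of them, including the brightest at -0.31, are of the type open to cross-hybridization. Rangap1, which makes Ran hydrolyse GTP at the cytoplasmic face, was lower at its brightest probe set (log2 -0.35, adjusted p = 0.000934), while its second, at -0.04, overlapped between groups and did not pass (adjusted p = 0.689).

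**Figure D4:**
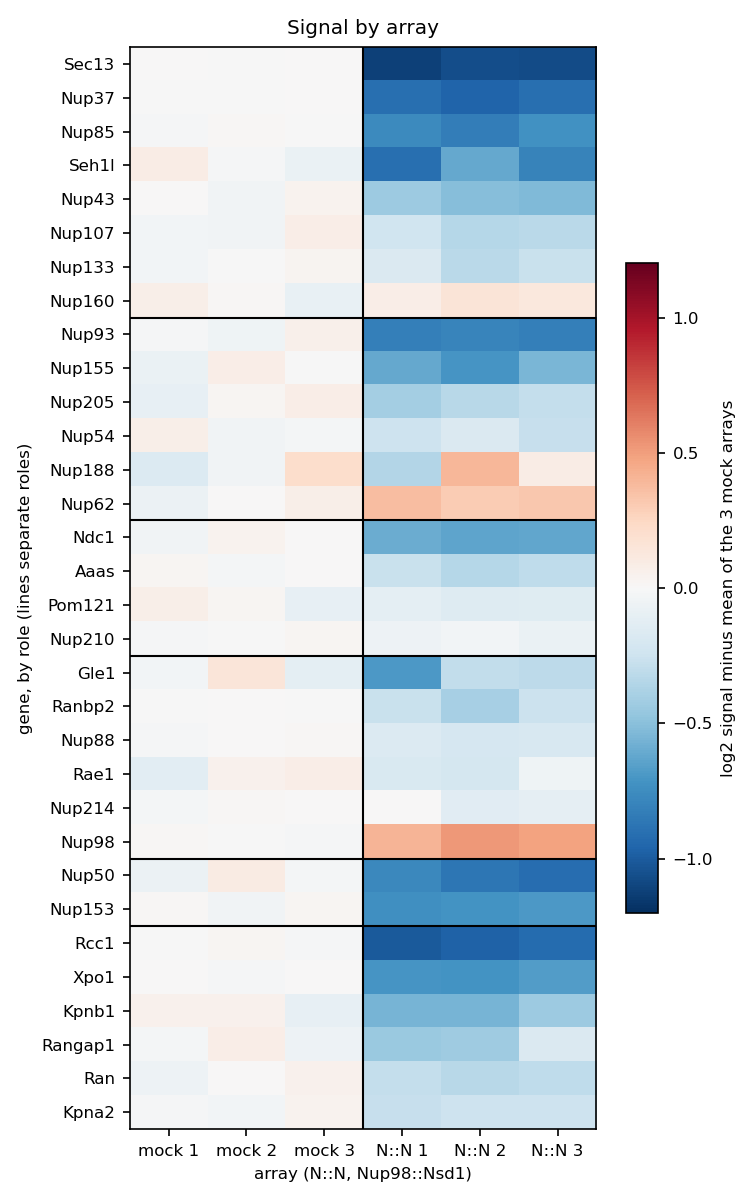
Each row is 1 of the 32 genes, grouped by role (y axis), and each column 1 of the 6 arrays (x axis, N::N standing for Nup98::Nsd1); colour gives the log2 signal minus the gene's mean over the 3 mock arrays. The Nup98::Nsd1 columns are blue (lower) for most genes, deepest in Sec13, Rcc1 and Nup37, and red for Nup98 and Nup62 on the deposited scaling (Nup62 turns sign with scaling to the hybridization controls).

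Probe sets of a gene did not always give the same call. Of the 23 genes with several tested probe sets, 9 were lower in all of them, against 16% of all 4711 such genes, and 5 had some lower and the rest not called. Nup98 was higher in both of its probe sets on the deposited scaling, and so was Nup160, whose second probe set entered the test only through the Nup98::Nsd1 arrays, where it was high, and is no support for the first. Nup62 was higher in some, and Nup188, Nup214 and Rae1 had none called. In Ranbp2, Nup153 and Gle1, probe sets were called in opposite directions, as in 12.7% of all such genes.

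For Ranbp2 and Nup153 the probe set that went up was the dimmest of those tested. This Ranbp2 probe set read 205, 220 and 180 in mock and 410, 499 and 374 in Nup98::Nsd1 cells, 2.11-fold higher without overlap (log2 1.08, SE 0.133, adjusted p = 1.96e-05), and it was called higher under all 4 other scalings; another was lower (log2 -0.23, adjusted p = 0.00059). This Nup153 probe set read 123, 141 and 94.1 in mock and 188, 210 and 170 in Nup98::Nsd1 cells, 1.6-fold higher without overlap (log2 0.68, SE 0.183, adjusted p = 0.00595), and another was lower (log2 -0.39, adjusted p = 0.00112). The Nup153 rise did not pass with quantile normalization (log2 0.28) or with scaling to the hybridization controls (log2 0.31). The Ranbp2 probe set, at a mean log2 signal of 8.19, was Present on all 6 arrays and lies above the limit of 8 used for dim probe sets. The sources used here do not say which transcripts these probe sets of Ranbp2 and Nup153 read.

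The scaling of the arrays moved the level of all genes, and with it both the rises and the falls. With the deposited scaling the median log2 fold change over all tested probe sets was 0.15; it was -0.009 with quantile normalization, -0.0446 with centring on the 75th percentile, -0.0178 with centring on the median and -0.21 with scaling to the hybridization controls. The number of the 32 genes called lower was 24, 28, 28 and 29 in that order, against 33.2%, 40.9%, 39.1% and 50.4% of all genes, and the number called higher was 3, 2, 2 and 0, against 36.3%, 30.3%, 31.9% and 21.1%. Nup98 kept a positive difference, at 0.47, 0.27, 0.30 and 0.10, the last of which did not pass (adjusted p = 0.197). The median of the 32 genes was -0.27, -0.52, -0.49 and -0.69 in the same order. Centring and scaling to the hybridization controls shift all genes of an array alike, so they cannot change its gap to the median of all probe sets. Only quantile normalization could, and it gave -0.27 beside -0.009, against -0.32 beside 0.15 as deposited.

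**Figure D5:**
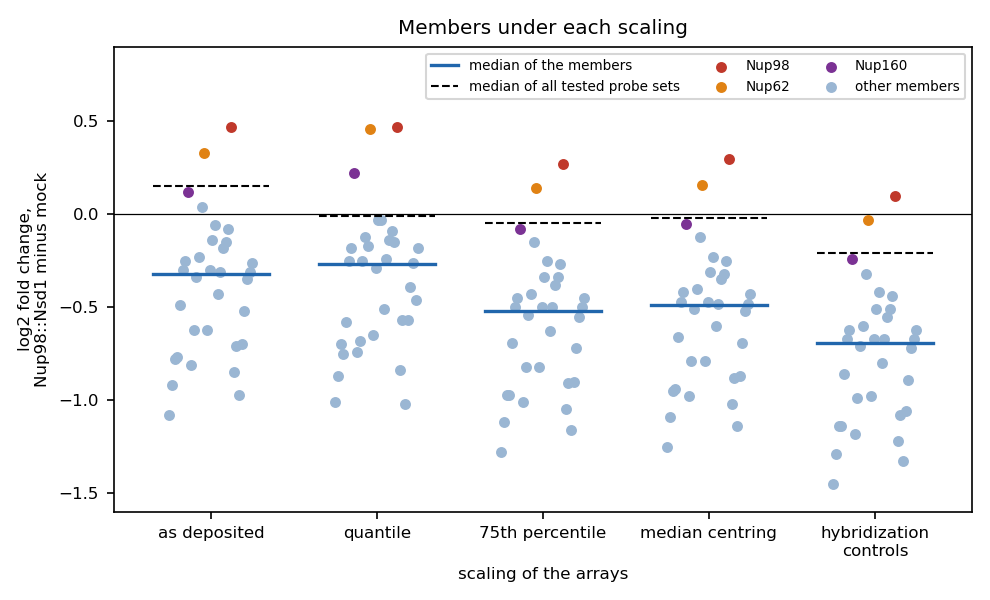
The log2 fold change (y axis) of the 32 genes is plotted under 5 scalings of the arrays (x axis), with solid lines for the median of these genes and dashed lines for the median of all tested probe sets. Nup98 lies above 0 in all 5, Nup62 falls below 0 with the hybridization controls (-0.03) and Nup160 in 3 of them. The solid line lies below the dashed line in each, a gap that only quantile normalization could change.

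Other genes of nuclear transport and the nuclear envelope were set beside these as 56 genes in 6 lists, of which 50 were tested. Of these, 31 were lower (62.0%), 9 higher and 10 not called, with a median of -0.29. Over all genes tested, 29.5% were lower and 42.9% higher, shares that also stand beside each list below. The 9 higher calls depended on the scaling: 7 stayed higher with quantile normalization and 1 with centring on the 75th percentile or on the median. With the hybridization controls 0 stayed higher, and 8 of the 9 had a negative difference.

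Of the other nucleoporins, all 4 tested were lower: the membrane protein Tmem33 (log2 -0.66, adjusted p = 1.24e-06), Nup42 (-0.43, adjusted p = 0.0043), the channel protein Nup58 (-0.32, adjusted p = 0.000885) and Ahctf1, which starts pore assembly on chromatin (-0.29, adjusted p = 0.000294). With probe sets averaged, 2 of the 4 were lower, a count beside which the shares for brightest probe sets do not stand. Averaged, Ahctf1 was at -0.01 (adjusted p = 0.895), since 1 of its other probe sets was higher (log2 0.41, adjusted p = 0.0309). Of 14 importins, 9 were lower, 3 higher and 2 not called, with a median of -0.35. Ipo5, which imports ribosomal proteins and histones, read 4505, 4477 and 4699 in mock and 2329, 2447 and 2484 in Nup98::Nsd1 cells, 1.88-fold lower without overlap (log2 -0.91, adjusted p = 1.02e-08). The importin alphas Kpna1 and Kpna3 were 1.9-fold and 1.76-fold lower (adjusted p = 7.65e-08 and 2.06e-08). The higher importins, Ipo4, Ipo13 and Tnpo2, had log2 fold changes of 0.23, 0.32 and 0.45; Ipo4 and Ipo13 turned sign with the hybridization controls.

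Of 6 further exportins, 3 were lower, 1 higher and 2 not called, with a median of -0.07. Cse1l, which returns importin alpha to the cytoplasm, read 6127, 6403 and 6209 in mock and 3202, 3183 and 3384 in Nup98::Nsd1 cells, 1.92-fold lower without overlap (log2 -0.94, adjusted p = 5.92e-09). Xpo4 was also 1.92-fold lower at its brightest probe set (adjusted p = 1.79e-05), though the mean of its probe sets did not pass (log2 -0.10, adjusted p = 0.499). The tRNA exporter Xpot was higher by log2 0.20 on the deposited scaling (adjusted p = 0.000652) and lower when scaled to the hybridization controls (log2 -0.17).

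Of 5 tested Ran cofactors and SUMO partners, 4 were lower and 1 not called, with a median of -0.57. Ranbp1, a partner of Rangap1 in GTP hydrolysis by Ran, read 15270, 16361 and 17390 in mock and 7611, 6770 and 7864 in Nup98::Nsd1 cells. Every Nup98::Nsd1 array was below every mock array, by a margin larger than the spread within groups, and the mean was 2.21-fold lower (log2 -1.14, adjusted p = 2.31e-08). Rangrf, which releases nucleotide from Ran, and the pore-bound SUMO protease Senp2 were 1.72-fold and 1.49-fold lower (adjusted p = 2.64e-07 and 1.09e-06).

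The mRNA export genes were mixed: of 13 tested, 5 were lower, 4 higher and 4 not called, with a median of -0.09, beside 29.5% lower and 42.9% higher over all genes. With centring on the 75th percentile or the median, 8 were lower and 0 higher, and with the hybridization controls 10 and 0. Under these scalings, in the same order, 40.9%, 39.1% and 50.4% of all genes were lower and 30.3%, 31.9% and 21.1% higher. Nxt1, a cofactor of the main mRNA export receptor, was 1.68-fold lower (log2 -0.75, adjusted p = 2.32e-07), the adaptor Alyref 1.55-fold (log2 -0.63, adjusted p = 3.11e-07), and Mcm3ap, which ties transcription to the pore, 1.35-fold (log2 -0.43, adjusted p = 2.27e-06). The higher ones, Ddx39b, Ddx19b, Thoc2 and Thoc5, lay between log2 0.20 and 0.27 and turned sign with the hybridization controls.

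Of 8 tested genes of the lamina and inner nuclear membrane, 6 were lower, 1 higher and 1 not called, with a median of -0.28. Lmnb1, a lamin of the nuclear lamina, read 5211, 5499 and 5555 in mock and 3193, 2738 and 3109 in Nup98::Nsd1 cells, 1.8-fold lower without overlap (log2 -0.85, adjusted p = 1.49e-07). Lmnb2 was 1.74-fold lower (adjusted p = 3.74e-06), and Banf1, which ties DNA to the inner membrane, 1.58-fold (adjusted p = 6.33e-08). Sun1, which links the lamina to the cytoskeleton, was higher at its brightest probe set by log2 0.29 (adjusted p = 0.00115), which turned sign with the hybridization controls. Its other probe set was lower (log2 -0.45, adjusted p = 0.000391), and with probe sets averaged Sun1 was not called higher.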

How the data were processed

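Per the labels' protocols, total RNA was extracted with RNeasy kits and labelled with a 3' IVT kit, and per the submitters' processing notes the arrays were processed with MAS5, with no version given. Per the file headers, the deposited values are a scaled signal intensity, a detection p-value and a detection call per probe set. The deposited table of the whole series held the same intensities (largest relative difference 5e-06). Of 45037 probe sets that were not controls, 34945 had 1 gene symbol in the platform annotation, 932 had several and 9160 were not listed. For 34741 the Entrez identifier was found in RefSeq and its symbol was used, whether or not it differed from the older one. Nup42 and Nup58 were updated through RefSeq synonyms.

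Intensities under 1 were set to 1 and taken to log2. Testing required a Present call throughout at least 1 group of 3 arrays (20494 probe sets), and the brightest tested probe set, by mean log2 signal, stood for its gene. The comparison used limma (version 3.58.1, R 4.3.3) with an intensity trend and Benjamini-Hochberg adjustment over all 20494 probe sets, at 0.05; the fit was tested on simulated data. Log2 fold changes are Nup98::Nsd1 minus mock; "1.5-fold lower" means mock divided by Nup98::Nsd1. Signals were given by array, by a rule, for Nup98, Xpo1, Rae1, up to 3 members per role with the smallest p, and members with opposite calls; up to 3 genes per other list were named. Nup160, Nup188, Kpna2, the dim probe sets and the other genes named were added after their values were seen, and so were the brightness limits of 8 and 10 (log2) and the promoter motifs. The members and lists were chosen with earlier results of these data known. Replicate numbers did not pair the samples.

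The alternatives were pseudocounts of 16 and 64, no detection filter, Present on all 6 arrays, 4 other scalings, no trend, array weights, a replicate block, averaging the probe sets of each gene, no probe sets ending in _s_at or _x_at, a 1.5-fold minimum, the series table, and leaving out each array. Probe sets ending in _s_at or _x_at, the types open to cross-hybridization, stood for Nup43, Nup54, Nup62, Nup107, Seh1l, Gle1 and Ran. Without such probe sets 31 genes were tested, of which 23 were lower and 3 higher. Probe sequences were not analysed here.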

Additional observations from a re-analysis of the deposited data

How the results depend on the processing

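The counts of genes higher (3) and lower (25) changed most with a 1.5-fold minimum, to 0 and 11. With scaling to the hybridization controls 0 genes were higher and the log2 fold change of Nup98 was 0.10 (adjusted p = 0.197). With the probe sets of each gene averaged, 4 genes were higher and 21 lower. Leaving out each array gave 2 to 3 genes higher, 24 to 25 lower and 0.44 to 0.50 for Nup98. The replicate number as a block gave 2 higher, 26 lower and 0.47 for Nup98; replicates with the same number did not deviate together (r = -0.017, -0.011 and 0.021), so the samples share only a number. Signs turned as follows: Nup62 -0.03 with hybridization controls; Nup160 -0.08 (75th percentile), -0.05 (median) and -0.24 (hybridization controls); Nup188 -0.15, -0.12 and -0.32 with the same scalings, -0.17 with quantile normalization, -0.13 without Nup98::Nsd1 replicate 2 and -0.04 without mock replicate 1 (range -0.13 to 0.24 over the arrays left out); Xpot -0.17 with hybridization controls; Ranbp2 0.18 (adjusted p = 0.00864) and Rae1 0.03 with all probe sets of a gene averaged; and Gle1 0.20 without probe sets ending in _s_at or _x_at, where another probe set stands for the gene. With averaged probe sets, Nup133 (-0.11), Nup153 (-0.14) and Gle1 (-0.03), and of the other genes Ahctf1 (-0.01), Xpo4 (-0.10) and Xpot (0.03), no longer passed. The causes were not tested. Signals near background limit the dim probe sets.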
